A study of Mus musculus with 4 samples.

Results

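Islets of Langerhans taken at 1 month of age were compared between CCR2-DTR+/- mice and their WT (CCR2-DTR-/-) littermates, with 1 single-cell RNA library for each genotype. All animals in both groups were females on a C57BL/6J background, and all had received diphtheria toxin in 4 injections, 48 hours apart, from postnatal day 2. Pups were weaned at 21 days onto chow. For each library the islets of 2 to 3 mice were released by collagenase digestion, separated on Ficoll, picked by hand and pooled to 300, and their cells were run on the 10x platform, so the values below describe 2 pools and give no spread between animals. The 2 libraries list 22877 of the 35079 cell barcodes of the series (10433 for WT, 12444 for CCR2-DTR). A second pair of libraries, of the same genotypes and treatment at 6 months, is used only to set 6-month values beside those of 1 month.

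CCR2 is the chemokine receptor that brings monocytes from bone marrow into the blood and then into tissue, where they become macrophages. In CCR2-DTR mice a transgene places the receptor for diphtheria toxin on cells that express CCR2, so that the toxin kills them, and the WT littermates control for the toxin itself. Islets contain beta cells (insulin), alpha cells (glucagon), delta cells (somatostatin) and Ppy cells (pancreatic polypeptide), threaded by a dense capillary net with pericytes and fibroblasts, and a small population of macrophages. Islet cells break during isolation and release RNA. That free RNA enters the droplets of every other cell, so a difference seen in all cell classes alike is a different kind of observation from a difference seen in 1 class.

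Barcodes were classed by hormone share of their UMIs (unique molecular identifiers, 1 per captured RNA): beta at 20% or more Ins1 and Ins2, alpha at 10% or more Gcg, delta at 5% or more Sst and Ppy at 5% or more Ppy. Endothelial, mesenchymal and macrophage barcodes were those without such a share that held at least 3 of 8 markers of the class. Of 17335 barcodes that passed quality filters (8736 WT, 8599 CCR2-DTR), 15825 fell into these 7 classes. Every class held all 8 of its own markers in both libraries, except delta, with 7 of the 7 found in the files, and Ppy, with 7 of 8. A single UMI in the sum of a class meets this count, so it does not show purity. CCR2-DTR beta barcodes, for instance, also held all 8 alpha and all 8 endothelial markers. The classes outside the hormone rules were moreover defined by their own markers. Both libraries share 34 barcode sequences. The share of all listed barcodes above 15% mitochondrial UMIs, often high where cells have broken, was 9.37% in WT and 18.4% in CCR2-DTR. Median depth of the barcodes kept was 11127 UMIs in WT and 8859 in CCR2-DTR. By class it was higher in WT for beta (17363 against 13783) and higher in CCR2-DTR for endothelial (3840 against 3110), mesenchymal (3422 against 2548) and macrophage barcodes (5016 against 4418).

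Within a class, the counts of all barcodes of a library were summed and divided by the UMIs outside 7 hormone genes, and multiplied by 1000000 (CPM). The genotypes were set against each other as a CPM ratio with an exact conditional 95% Poisson interval. The intervals cover counting error only, because the 2 pools have no replicates and no test between them was possible. A gene counted as measured in a class with at least 100 UMIs over both libraries and 50 CPM in one of them, and as past the fold at 1.5-fold. By this rule 40 of 3825 measured genes differed in beta barcodes (1.05%), with 14 higher in CCR2-DTR (0.366%) and 26 lower (0.680%). In alpha barcodes it was 36 of 3597 (1.00%), with 20 higher (0.556%) and 16 lower (0.445%), and in delta 60 of 4070 (1.47%), with 30 higher (0.737%) and 30 lower (0.737%). Ppy barcodes had 55 of 3866 (1.42%), with 29 higher (0.750%) and 26 lower (0.673%). The share was larger in endothelial barcodes (146 of 3988, 3.66%, with 93 or 2.33% higher and 53 or 1.33% lower). It was 8.05% in mesenchymal barcodes (287 of 3565, with 176 or 4.94% higher and 111 or 3.11% lower) and 7.16% in macrophages (124 of 1731, with 82 or 4.74% higher and 42 or 2.43% lower). The mesenchymal and macrophage classes had the fewest UMIs, and their genes scattered the most: 95.5% of genes lay within 1.25-fold in beta barcodes, 71.7% in mesenchymal barcodes and 71.5% in macrophages. These shares are the background against which the counts below are read. Leaving hormone genes in the denominator shifted the median gene of beta barcodes from 0.01 to 0.20 on the log2 scale, because hormones took up less of the CCR2-DTR beta UMIs, and there gave 19 genes higher and 2 lower. The split of genes higher and lower went from 20 and 16 to 14 and 23 in alpha, from 29 and 26 to 18 and 8 in Ppy, from 93 and 53 to 76 and 71 in endothelial, from 176 and 111 to 133 and 173 in mesenchymal and from 82 and 42 to 69 and 68 in macrophage barcodes. Setting the median gene of each class to 0 gave 19 and 24 in alpha and 22 and 42 in Ppy barcodes.

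The differences fell into a set that most classes had in common and a set tied to single classes, and 3 sequences stand for the first set. The Rgs2 promoter is shown because Rgs2 was higher in CCR2-DTR in 6 of the 7 classes, the Hspa1b promoter because that heat shock gene was lower in all 7, and the Rpl41 coding sequence because short transcripts as a group were lower in all 7. Promoters are the 250 bases before the RefSeq start on GRCm38.p6, both on the minus strand. Capitals mark ACGTCA, the reverse complement of the motif TGACGT that cAMP-responsive factors bind, in Rgs2 (chr1:144004150-144004399, 186 bases before the start), and GAAGATTC, an instance of the heat shock motif GAANNTTC, in Hspa1b (chr17:34959239-34959488, 104 bases before the start). In Rpl41, read from GENCODE vM21 transcripts on GRCm38 (chr10:128548387-128548960, minus strand, exons joined), capitals mark the start and stop codons. Searched on both strands, TGACGT is in 2125 of 32851 promoters of this length (6.47%) and GAANNTTC in 2199 (6.69%), so a match describes the sequence and names no regulator.
Rgs2: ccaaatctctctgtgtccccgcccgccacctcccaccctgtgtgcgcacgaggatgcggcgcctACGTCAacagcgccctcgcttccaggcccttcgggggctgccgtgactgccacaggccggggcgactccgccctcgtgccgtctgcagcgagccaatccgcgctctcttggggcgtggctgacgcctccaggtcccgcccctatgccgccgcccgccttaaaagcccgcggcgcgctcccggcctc
Hspa1b: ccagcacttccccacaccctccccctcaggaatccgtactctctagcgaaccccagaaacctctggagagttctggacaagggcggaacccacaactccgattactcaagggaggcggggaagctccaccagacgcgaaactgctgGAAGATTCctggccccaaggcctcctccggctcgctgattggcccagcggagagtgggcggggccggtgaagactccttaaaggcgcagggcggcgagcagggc
Rpl41: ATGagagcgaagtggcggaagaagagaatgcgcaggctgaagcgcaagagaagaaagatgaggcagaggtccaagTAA

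A gene was called shared when it was measured in at least 5 of the 7 classes and lay past 1.5-fold the same way in every class where it was measured. Of 2708 genes that could qualify, 1 was shared and higher in CCR2-DTR (0.0369%), the digestive protease precursor Ctrb1. Another 3 were shared and lower (0.111%), among them Rpl37 and Rps21, which encode ribosomal proteins. With CPM over all UMIs none of these 3 was shared, and Gm10076 alone was: in beta barcodes the log2 ratio of Rps21 was then -0.51 and that of Rpl37 -0.475, beside a median gene at 0.20. Allowing 1 class to fall short added 4 genes that were higher (0.148%: Rgs2, G6pc2, Prlr and Ins2) and 3 that were lower (0.111%: Hspa1b, Rpl35 and Gm10076). Loosening the fold to 1.25, chosen after the data were seen, gave 4 genes higher (0.148%: Ctrb1, Fkbp5, Nfkbia and Il6ra) and 35 lower (1.29%). The count lower at 1.25-fold was therefore larger than the count higher.

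**Figure D1:**
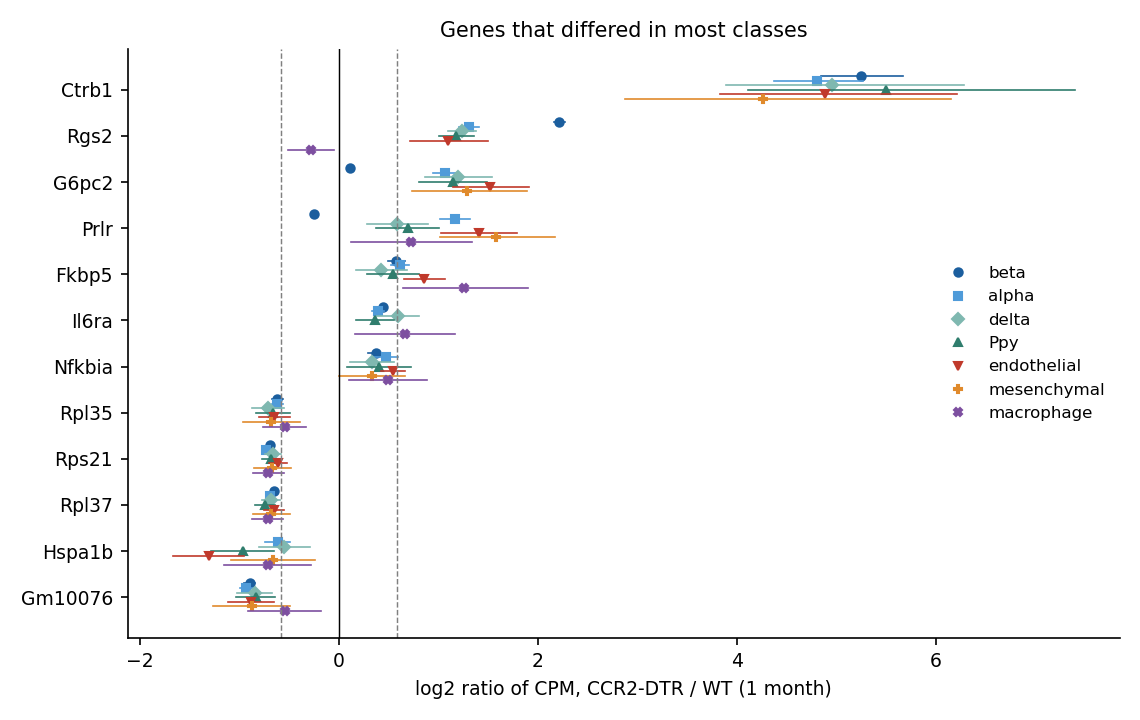
Log2 ratio of CPM, CCR2-DTR over WT at 1 month (x axis), for genes that differed in most classes; each symbol is 1 class where the gene was measured, bars are 95% Poisson intervals (counting error only) and dashed lines mark 1.5-fold. Ctrb1 stands above the rest, Rgs2 is above 0 in every class shown but macrophages, and Rpl37 and Rps21 sit between -0.61 and -0.75 in all 7 classes.

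Ctrb1 (chymotrypsinogen B1, on chr8:111686519-111691010) is made by acinar cells of the exocrine pancreas, which surround the islets. In beta barcodes it was at 1.70 CPM in WT and 64.2 CPM in CCR2-DTR, a ratio of 37.9 (95% interval 28.7 to 51.0). Its CPM in the CCR2-DTR library ranged from 64.2 to 121 over all 7 classes, while in WT it ranged from 1.65 to 13.3. Every class of the CCR2-DTR library, from beta barcodes to macrophages, thus carried it at a similar level. The ratio was 27.9 in alpha, 31.0 in delta, 45.2 in Ppy, 29.6 in endothelial and 19.1 in mesenchymal barcodes, and 8.57 (4.12 to 20.6) in macrophages, where it missed the floor. Ctrb1 lost the shared call under 5 alternatives: CPM over all UMIs, a floor of 200 UMIs, barcodes with no digestive enzyme UMI, and acinar markers counted against a hormone class, alone or with ductal ones. Barcodes with no digestive enzyme UMI hold no Ctrb1, so that loss was fixed in advance. Ctrb1 is itself an acinar marker, and counting these markers sets aside hormone barcodes that may carry it. With CPM over all UMIs the log2 ratio of Ctrb1 was still between 3.05 and 5.56 in the 7 classes. At 6 months it was again higher in the CCR2-DTR library, by a median log2 ratio of 2.77 over the classes.

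Other digestive enzymes moved with it. After thinning each barcode to 1500 UMIs, to set aside the difference in depth, the share of barcodes with at least 1 digestive enzyme UMI was 4.37% in WT and 29.1% in CCR2-DTR over the 7 classes, against 19.98% and 79.7% before thinning. By class the thinned share went from 1.37% to 18.9% in beta, 4.16% to 29.7% in alpha and 26.8% to 51.1% in delta barcodes. It went from 5.71% to 44.3% in endothelial, 5.63% to 52.1% in mesenchymal and 11.6% to 48.7% in macrophage barcodes. The makeup of the digestive RNA differed as well: Ctrb1 made up 4.34% of it in WT (127 of 2925 UMIs) and 18.0% in CCR2-DTR (3475 of 19318). The number of acinar barcodes moved the same way, from 6 to 36 (ratio of shares 6.10, interval 2.54 to 17.7). The part of digestive RNA in the differences of other genes was not tested, but values for barcodes with no digestive enzyme UMI are given with the dependence on processing.

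**Figure D2:**
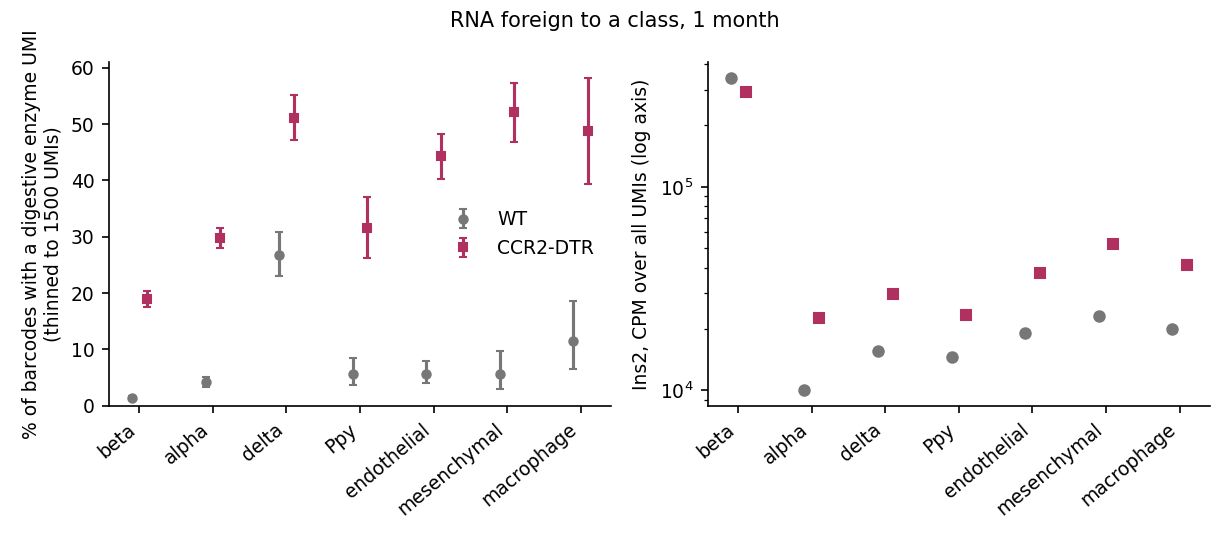
RNA of other cell types in the 7 classes at 1 month, WT in grey and CCR2-DTR in red: the share of barcodes with a digestive enzyme UMI after thinning to 1500 UMIs, with exact 95% binomial intervals, and Ins2 CPM over all UMIs (log axis). The first is higher in CCR2-DTR in all 7 classes, and the second in all but beta barcodes.

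Beta cell RNA in cells other than beta cells followed the same direction. Ins2, an insulin gene, was at 10038 CPM over all UMIs in WT alpha barcodes and 22687 in CCR2-DTR. It was at 19052 and 37933 in endothelial, 23255 and 52624 in mesenchymal, and 19932 and 41079 in macrophage barcodes. Within beta barcodes the order was the opposite, with 342328 in WT and 292063 in CCR2-DTR. Iapp, the amyloid polypeptide secreted with insulin, was at 14.6 UMIs per 100 of Ins2 in WT beta barcodes and 21.9 in CCR2-DTR, and stood at 14.8 and 20.2 in endothelial and at 13.6 and 20.8 in mesenchymal barcodes. The ratio in those foreign barcodes was therefore close to that of the beta barcodes of the same library. In macrophages it was 18.3 and 19.2.

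G6pc2 and Prlr, which beta cells express strongly, differed between the genotypes outside beta barcodes and little within them. G6pc2, a glucose-6-phosphatase of the islet, was at 1598 CPM in WT and 1724 in CCR2-DTR beta barcodes, a ratio of 1.08 (1.06 to 1.09). Outside beta barcodes its ratio was 2.09 in alpha, 2.29 in delta, 2.21 in Ppy, 2.87 in endothelial and 2.44 in mesenchymal barcodes, at levels of 31.2 to 124 CPM. Prlr, the prolactin receptor, was slightly lower in CCR2-DTR beta barcodes (1265 against 1502 CPM, 1.19-fold lower) and higher elsewhere, by 1.5-fold in delta to 2.98-fold in mesenchymal barcodes. Of the list of beta identity genes, 10 of 11 measured were past the fold in endothelial barcodes (median log2 ratio 1.33), 12 of 14 in mesenchymal barcodes (1.19) and 6 of 10 in macrophages (0.67), all higher in CCR2-DTR. In beta barcodes themselves 1 of 31 was past it, with a median of -0.02. The median over all measured genes was between 0.01 and 0.03 in each class.

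Alpha and delta cell RNA did not follow beta cell RNA in every class. Of 6 measured alpha identity genes, 4 were higher past the fold in endothelial barcodes. Sst, the delta hormone, was lower in CCR2-DTR macrophages, at 882 CPM against 3649 in WT (4.14-fold, 3.76 to 4.56), and lower in endothelial barcodes, at 328 against 643 CPM. Single barcodes carried much of this: 1 WT macrophage barcode held 726 of 2189 Sst UMIs and 1 WT endothelial barcode 1008 of 1528. Without the leading barcode of each library Sst was at 219 CPM in WT and 211 in CCR2-DTR endothelial barcodes, so that difference rested on them, and at 2439 and 244 CPM in macrophages. In mesenchymal barcodes Sst was higher in CCR2-DTR, with a log2 ratio of 1.55, or 0.62 without the leading barcodes.

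Ccr2 itself and its neighbour Ccr3 on chromosome 9 were also found outside their usual cells. Ccr2 (chr9:124101950-124113557) lies beside Ccr3 (chr9:124021972-124031689), a chemokine receptor of eosinophils, with Ccr1 further upstream (chr9:123962124-123968692). Over the 6 classes other than macrophages the CCR2-DTR library held 366 UMIs of Ccr3 and WT 1, a ratio of 431 (76.8 to 17055). In beta barcodes these were 176 and 0 UMIs, in alpha 129 and 1, in endothelial 30 and 0 and in delta 14 and 0. Ccr2 had 167 UMIs against 1 over the same 6 classes, a ratio of 196 (34.8 to 7807), and Ccr1 had 5 against 1. The nearby genes Lztfl1 and Fyco1 had ratios of 1.04 and 1.01. Over these classes Ccr3 was at 7.84 CPM and Ccr2 at 3.58 CPM in CCR2-DTR. Fyco1 was at 36.8 CPM in WT and 37.0 in CCR2-DTR, so no excess of that size was seen there. Lztfl1 was at 114 and 118 CPM. An excess of a few CPM would leave the ratio of Lztfl1 near 1, so its ratio cannot show whether one was present. At 6 months the excess of Ccr3 and Ccr2 was again present, with 288 Ccr3 UMIs in CCR2-DTR and 2 in WT, and 128 and 0 of Ccr2. Ccr3, Lztfl1, Fyco1 and Ccr1 were looked up because of where they lie.

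In macrophages Ccr2 was at 138 CPM in WT and 363 in CCR2-DTR, 2.62-fold higher (2.03 to 3.42). It was therefore more abundant in the library labelled CCR2-DTR, the genotype in which CCR2-expressing cells had been the toxin's target in the first days of life. Its CPM in macrophages exceeded that in the other classes of the same library, of 3.06 to 5.11 CPM. Ccr3 had 6 UMIs in CCR2-DTR macrophages and 0 in WT, and Ccr1 was at 133 and 125 CPM there, in CCR2-DTR and WT.

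Short transcripts were common among the genes lower in all classes, but not all of these genes were short. In each class, genes whose longest coding transcript was under 500 nucleotides had a negative median log2 ratio: -0.55 in beta (26 genes, 26 below 0), -0.50 in alpha (24 of 24 below 0), -0.51 in delta (27 of 27), -0.48 in Ppy (26 of 27), -0.55 in endothelial (20 of 20), -0.59 in mesenchymal (21 of 21) and -0.52 in macrophage barcodes (17 of 17). The median of genes from 500 to 699 nucleotides was -0.25 in beta and between -0.16 and -0.27 in all classes. From 700 nucleotides upward, it lay between -0.02 and 0.10 in beta barcodes. At 6 months the median of the shortest genes was between 0.04 and 0.14 in the 7 classes, on the other side of 0. Of the 35 genes lower at 1.25-fold in every class, 33 had a length, with a median of 612 nucleotides, against 3250 for the genes measured in beta barcodes. In all, 19 of these 33 were under 700 nucleotides, where 3.08% of the genes measured in beta barcodes fall, and 26 were under 1000. Others were long, among them Lpp at 15459 nucleotides and Rps15a at 5179.

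**Figure D3:**
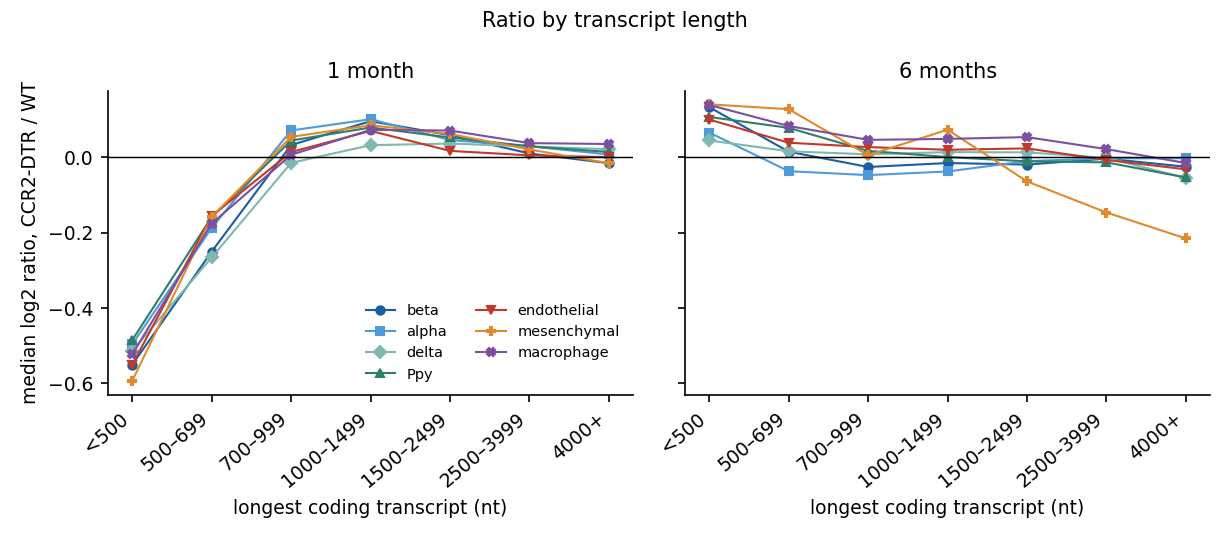
Median log2 ratio of CPM, CCR2-DTR over WT, of measured genes grouped by the length of their longest coding transcript, at 1 month (left) and 6 months (right); each line is 1 of 7 classes. At 1 month all 7 lines start between -0.48 and -0.59 under 500 nucleotides and come close to 0 from 700 nucleotides, and at 6 months they start between 0.04 and 0.14.

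Ribosomal protein genes, whose products build the translating ribosome, are among the shortest and most abundant transcripts, and 20 of the 35 genes are on that list. Rpl37 was at 646 CPM in WT and 411 in CCR2-DTR beta barcodes, 1.57-fold lower. Over the 7 classes its fold difference stayed within 1.57 to 1.68. Rps21 was at 860 and 534 CPM in beta barcodes, 1.61-fold lower, and between 1.53- and 1.66-fold lower in all 7. Rpl41, whose coding sequence of 78 bases is printed above, was at 1878 and 1234 CPM in beta barcodes, 1.52-fold lower, and between 1.36- and 1.52-fold lower in the 7 classes. At 6 months none of these 3 was lower in a class: their medians were 0.12 for Rpl37, 0.23 for Rps21 and above 0 for Rpl41. Of the 78 to 79 ribosomal protein genes measured, between 6 and 12 were past 1.5-fold, all lower, with list medians from -0.14 to -0.27. With CPM over all UMIs the list median in beta barcodes was -0.03, beside a median of 0.20 over all genes measured there. Reads of these genes can be shared with processed pseudogenes, and their levels are uncertain to that extent.

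Short genes outside the ribosomal protein list were lower too, and ribosomal protein genes were lower than others of their length. Leaving out ribosomal protein genes, the shortest genes had medians of -0.53 in beta (17 genes), -0.52 in endothelial (11 genes) and -0.68 in mesenchymal barcodes (12 genes). From 700 to under 1000 nucleotides, ribosomal protein genes had medians between -0.09 and -0.21 in the 7 classes and other genes between -0.01 and 0.09. From 1000 to under 1500 nucleotides these were -0.04 to -0.14 and 0.03 to 0.11. mt-Nd3, a short gene of the mitochondrial genome, was at 2053 CPM in WT and 1282 in CCR2-DTR beta barcodes, 1.60-fold lower. Dpm3, a subunit of the enzyme that makes dolichol-linked mannose for glycosylation, was at 179 and 108 CPM in beta barcodes, 1.66-fold lower. Nuclear genes of the respiratory chain, many of them short, had between 1 and 11 members past the fold of 54 to 74 measured, all lower in CCR2-DTR, with medians from -0.04 to -0.22.

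Rgs2 (chr1:143999338-144004161) encodes a regulator that shortens G protein signalling and is itself induced by cAMP in many cells. It was at 111 CPM in WT and 513 in CCR2-DTR beta barcodes, 4.63-fold higher (4.46 to 4.82), the largest ratio of any gene measured there apart from Ctrb1. In alpha barcodes it was at 74.6 and 184 CPM (2.47-fold), in delta at 218 and 512 CPM (2.35-fold), in Ppy at 169 and 381 CPM (2.26-fold) and in endothelial barcodes at 32.0 and 68.5 CPM (2.14-fold). Macrophages, where Rgs2 was highest in WT, went the other way, with 568 CPM in WT and 469 in CCR2-DTR. The beta ratio exceeded that of the other classes, and its interval overlapped only that of mesenchymal barcodes (1.54 to 5.53, from 13 and 72 UMIs). At 6 months the log2 ratio of Rgs2 was 0.62 in beta, 0.49 in alpha and -0.29 in macrophage barcodes, in the same directions and smaller in beta and alpha.

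Several genes that glucocorticoids induce were higher in CCR2-DTR, with the largest ratios outside the endocrine classes. Fkbp5, a chaperone that restrains the glucocorticoid receptor, was at 66.3 CPM in WT and 98.7 in CCR2-DTR beta barcodes (1.49-fold), at 116 and 210 in endothelial (1.81-fold, 1.57 to 2.09) and at 53.3 and 128 in macrophage barcodes (2.39-fold, 1.56 to 3.73). Its ratio was 1.34 in delta barcodes, its lowest value, and higher in the other 6 classes. Tsc22d3, a glucocorticoid-induced leucine zipper protein, was at 324 and 505 CPM in endothelial (1.56-fold) and 117 and 257 in macrophage barcodes (2.20-fold), but its ratio was between 0.943 and 1.14 in the 4 endocrine classes. Per1, a clock gene, was at 27.4 and 59.3 CPM in endothelial barcodes (2.17-fold, 1.62 to 2.93). Of the glucocorticoid-responsive list, 5 of 13 measured genes were past the fold in endothelial and 5 of 13 in mesenchymal barcodes, all higher, with medians of 0.52 and 0.42. In beta barcodes 0 of 9 were higher and 2 lower. Nfkbia, an inhibitor of NF-kB that glucocorticoids also induce, had ratios from 1.25 in mesenchymal to 1.46 in endothelial barcodes.

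Hspa1b (chr17:34956436-34959238), an inducible chaperone of the heat shock response, was lower in CCR2-DTR in all 7 classes. It was at 84.6 CPM in WT and 34.1 in CCR2-DTR endothelial barcodes (2.48-fold lower), at 123 and 62.8 in Ppy (1.95-fold) and at 85.1 and 55.5 in alpha barcodes (1.53-fold). Beta barcodes, at 40.5 and 29.3 CPM, were under the floor. Its neighbour and near copy Hspa1a had 1.78-fold lower CPM in endothelial (142 and 79.8) and 1.23-fold in beta barcodes, so reads could be split between the pair. Few other chaperones differed: of 10 to 18 measured members of the list, this pair included, between 0 and 3 were past the fold in a class, with medians from -0.02 to 0.10. At 6 months the median log2 ratio of Hspa1b was 0.25, the opposite direction.

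Differences tied to a single class were few by the rule used here. A gene of 1 class had to be measured in at least 4 classes, lie past 2-fold in 1 and stay within 1.5-fold in the others. This rule was met by 14 of 3389 genes (0.413%): 6 in endothelial barcodes (H2afx, Odc1, Cd63, Slc7a2, Rian and Nav2), 4 in mesenchymal (among them Enpp2, Chic1 and Aga), 3 in macrophages (Emb, Serpinb6a and, lower, Igfbp7) and 1 in Ppy barcodes (Ifi27). None was in beta, alpha or delta barcodes. Of the 14, only H2afx, Odc1 and Serpinb6a passed the naming rule. The others were more than 5-fold below their CPM in another class in either library, and the part of RNA from other classes in their differences was not tested. Besides the 14 genes, each class had genes that were measured only in a few classes and are described by class below.

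**Figure D4:**
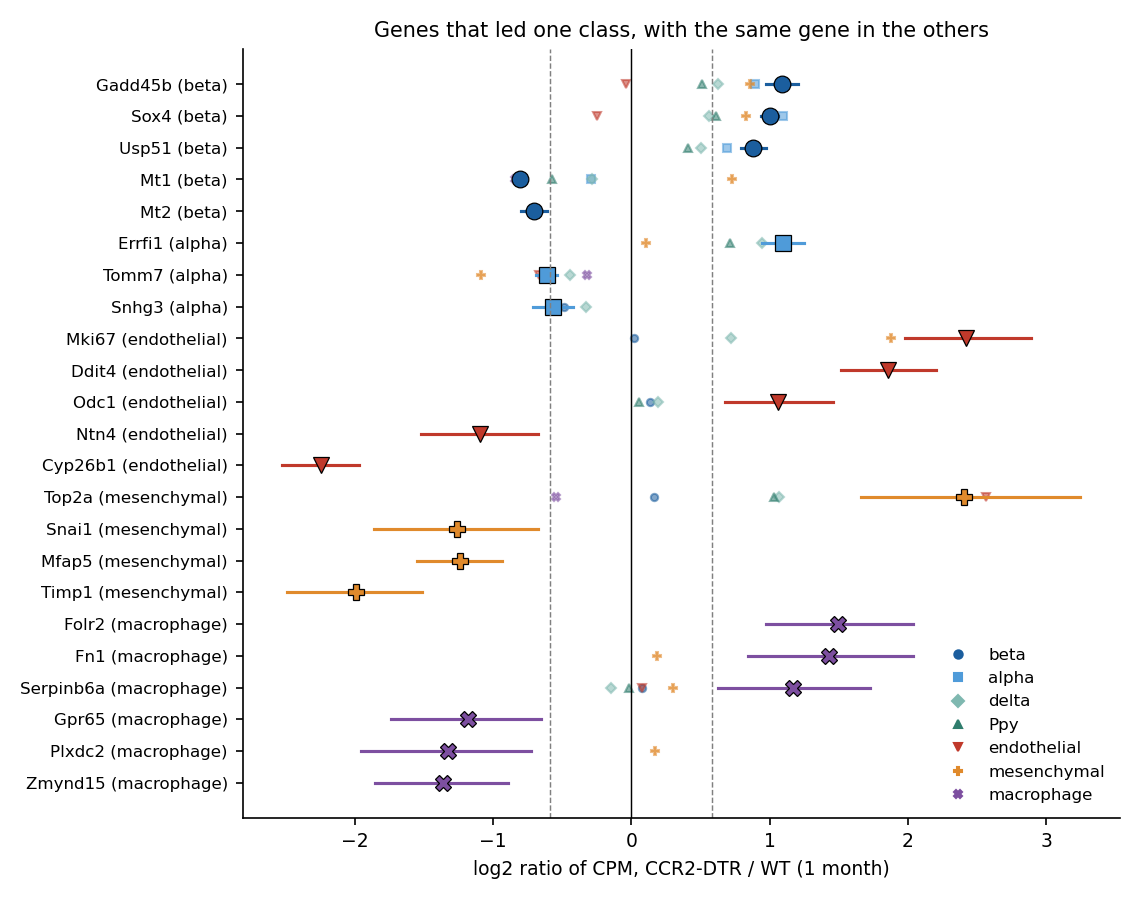
Log2 ratio of CPM, CCR2-DTR over WT at 1 month (x axis), for genes at the extremes of the class in brackets; large symbols with 95% Poisson intervals (counting error only) are that class, small symbols the other classes where the gene was measured, and dashed lines mark 1.5-fold. Sox4 and Gadd45b are past 1.5-fold in several endocrine classes, and Sox4 also in mesenchymal barcodes, while Cyp26b1 and Ddit4 were measured in endothelial barcodes alone.

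In beta barcodes the genes furthest apart after Rgs2 included regulators of growth and stress. Sox4, a transcription factor of the embryonic endocrine pancreas, was at 113 CPM in WT and 227 in CCR2-DTR (2.00-fold higher), and at 155 and 331 CPM in alpha barcodes (2.14-fold). Gadd45b, a growth arrest and DNA damage inducible gene, was at 31.3 and 66.7 CPM in beta (2.13-fold, 1.96 to 2.31) and at 113 and 211 CPM in alpha barcodes (1.86-fold). Sox4 was also higher in mesenchymal barcodes, with a log2 ratio of 0.83. It was 1.19-fold lower in endothelial barcodes, so its higher level did not extend to every class. Nnat, an imprinted gene of beta cells, was at 207 and 369 CPM (1.78-fold), and Bambi, a decoy receptor for TGF-beta, at 69.6 and 112 CPM (1.60-fold); Bambi was picked after its value was seen. The metallothioneins Mt1 and Mt2, which bind zinc, were lower, at 591 and 338 CPM (1.75-fold) and at 94.3 and 57.9 CPM (1.63-fold). Mt1 was also 1.79-fold lower in macrophages and 1.66-fold higher in mesenchymal barcodes. Mafa, a maturity factor of beta cells, was at 586 and 468 CPM, 1.25-fold lower, within the fold used here.

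Usp51, a deubiquitinase, was at 56.2 CPM in WT and 104 in CCR2-DTR beta barcodes (1.84-fold higher), and 1.61-fold higher in alpha. Alpha barcodes had few other differences. Errfi1, which restrains the EGF receptor, was at 33.0 and 70.5 CPM there (2.14-fold, 1.93 to 2.38), and 1.93-fold higher in delta and 1.64-fold in Ppy barcodes. The lowest besides Hspa1b were Tomm7, of the mitochondrial import channel, at 239 and 156 CPM (1.53-fold lower, and 1.59-fold in endothelial barcodes), and Snhg3, a host gene of small nucleolar RNA, at 65.5 and 44.2 CPM. No alpha identity gene of 14 measured was past the fold in alpha barcodes.

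In delta barcodes the highest genes besides Rgs2 were of cell division. Ube2c, a ubiquitin-conjugating enzyme of mitosis, was at 16.8 CPM in WT and 55.7 in CCR2-DTR (3.32-fold), but from only 10 and 21 barcodes. Cenpf, a kinetochore protein, was at 26.9 and 69.0 CPM from 11 and 21 barcodes. A few barcodes therefore set these values, and the direction of Cenpf turned with stricter class thresholds (log2 ratio -0.32) and that of Ube2c when barcodes with acinar or ductal markers were set aside (-1.17). Dlk1, an imprinted gene, was at 32.1 and 71.7 CPM (2.24-fold). Cops9 and Tubgcp5 were each 1.73-fold lower. Fabp2, a gene of gut epithelium, had 159 UMIs in WT and 0 in CCR2-DTR, and 152 of the 159 lay in 1 barcode. In Ppy barcodes the highest genes after Rgs2 by the naming rule, which passes over genes far higher in another class such as G6pc2, were Arl4d, a small GTPase, at 23.9 and 50.1 CPM (2.10-fold), and Top2a, a topoisomerase of dividing cells, at 28.8 and 59.1 CPM from 13 and 23 barcodes, and its log2 ratio was -2.67 in barcodes with no digestive enzyme UMI. Leaving out Ppy barcodes with such a UMI removed 251 of 307 in CCR2-DTR and 101 of 390 in WT. Smarcd1, a chromatin remodeller subunit, was 1.88-fold lower, and Cox20, a respiratory chain assembly factor, 1.68-fold lower. Of the delta identity list 0 of 12 measured genes were past the fold in delta barcodes, and of the Ppy list 0 of 8 in Ppy barcodes.

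Endothelial barcodes showed the clearest differences of a single class. Cyp26b1 (chr6:84571414-84593908), which degrades retinoic acid, was at 221 CPM in WT, in 225 barcodes, and at 46.7 CPM in CCR2-DTR, in 71 barcodes, 4.72-fold lower (3.91 to 5.74). Ddit4, which inhibits mTORC1 under hypoxia and glucocorticoids, was at 36.6 CPM in 80 barcodes and 132 CPM in 233 barcodes, 3.61-fold higher (2.86 to 4.61). Neither difference came from a few barcodes. Ddit4 was also higher in macrophages, with 6 UMIs in WT and 49 in CCR2-DTR, and between 1.24- and 1.35-fold in the endocrine classes, where it was under the floor. Odc1, the first enzyme of polyamine synthesis, was at 32.8 and 68.5 CPM (2.09-fold). Ntn4, a netrin of the vascular basement membrane, was at 55.1 and 25.9 CPM (2.13-fold lower) and Car4, a carbonic anhydrase of capillaries, at 123 and 67.5 CPM (1.83-fold lower). Of the list of capillary and angiogenesis genes 2 of 29 measured were past the fold, both lower, with a median of -0.12, and of the interferon and MHC class I list 0 of 28, with a median of -0.17.

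Genes of dividing cells were the other endothelial group. Mki67, a marker of cycling cells, was at 20.2 CPM in 8 WT barcodes and 108 CPM in 50 CCR2-DTR barcodes (5.37-fold). Hist1h1b, a replication-dependent linker histone, was at 11.8 CPM in 4 barcodes and 73.6 CPM in 35 (6.25-fold). Of the cell cycle list 7 of 11 measured genes were past the fold, all higher, with a median log2 ratio of 1.13. Barcodes with UMIs of at least 2 of 14 mitotic genes were 14 of 619 in WT (2.26%, exact interval 1.24 to 3.77) and 65 of 631 in CCR2-DTR (10.3%, 8.04 to 12.9). After thinning to 1500 UMIs the shares were 0.692% (0.189 to 1.76) and 6.60% (4.78 to 8.85), so the intervals stayed apart at equal depth. This thinning left out 41 WT and 10 CCR2-DTR barcodes that were too shallow.

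**Figure D5:**
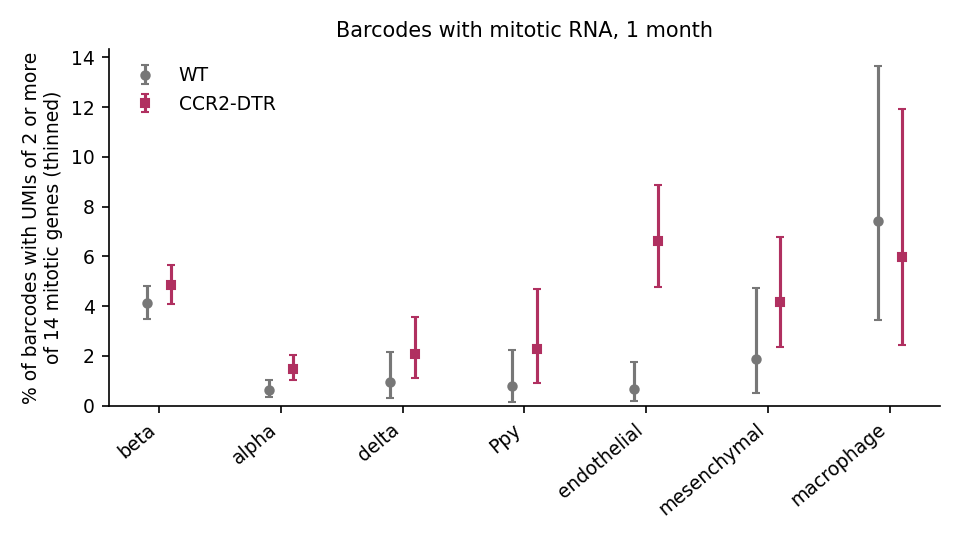
Share of barcodes with UMIs of at least 2 of 14 mitotic genes in each class at 1 month, after thinning every barcode to 1500 UMIs, WT in grey and CCR2-DTR in red, with exact 95% binomial intervals (counting error only). The endothelial shares, 0.692% and 6.60%, are the pair furthest apart, the alpha intervals also stay apart, and those of the other 5 classes overlap.

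The thinned mitotic share in other classes was 4.12% in WT and 4.83% in CCR2-DTR beta barcodes, with overlapping intervals, and 0.630% (0.353 to 1.04) and 1.49% (1.05 to 2.05) in alpha barcodes, whose intervals did not overlap. It was 0.938% and 2.10% in delta and 0.777% and 2.30% in Ppy barcodes, with overlapping intervals. It was 1.88% and 4.18% in mesenchymal and 7.44% and 5.98% in macrophage barcodes, again with overlapping intervals. Beta cells, which divide at this age, had mitotic barcodes in both libraries. In endothelial barcodes outside the mitotic set, Ddit4 was 3.80-fold higher (2.98 to 4.88), Odc1 2.28-fold higher and Cyp26b1 4.35-fold lower in CCR2-DTR, so the first 2 differences were as large without the mitotic barcodes, and that of Cyp26b1 was slightly smaller than its 4.72-fold over all. H2afx, a histone variant, was at 33.3 and 83.5 CPM over all endothelial barcodes (2.51-fold) but its ratio was 1.34 (0.953 to 1.89) outside the mitotic set.

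The mesenchymal class, made of pericytes and fibroblasts, was larger in CCR2-DTR: 227 barcodes in WT (2.60% of those kept) and 363 in CCR2-DTR (4.22%), a ratio of shares of 1.62 (1.37 to 1.93). Its makeup was as follows. Barcodes with at least 2 of 6 fibroblast genes were 20.3% of the class in WT and 28.4% in CCR2-DTR, and those with at least 2 of 6 pericyte genes 90.7% and 83.7%, with overlapping intervals for both subsets. Pdgfrb, a pericyte receptor, was 1.42-fold lower in CCR2-DTR (997 and 701 CPM), and Dcn, a fibroblast proteoglycan, 1.75-fold higher (1116 and 1957 CPM). Collagenase digestion and hand picking also decide how many stromal cells stay with an islet, and that cannot be told apart from genotype with 1 library each.

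In the fibroblast barcodes several genes picked after their values were seen, C3, C4b and Cebpd, were higher in CCR2-DTR. C3, the central complement protein, was at 163 CPM in WT and 429 in CCR2-DTR (2.63-fold, 1.78 to 4.01), C4b at 70.6 and 226 CPM (3.20-fold, 1.79 to 6.21), and Cebpd, a transcription factor of acute inflammation, at 174 and 531 CPM (3.06-fold). Cxcl12, a chemokine that retains leukocytes, was at 245 and 586 CPM (2.40-fold). Timp1, an inhibitor of matrix proteases, and Mfap5, of the elastic microfibril, were lower, by 5.67-fold and 2.87-fold. These rest on 46 WT and 103 CCR2-DTR barcodes. Over the whole class Timp1 was at 172 and 43.3 CPM, and 71 of its 109 WT UMIs lay in 1 barcode, without which the log2 ratio was -0.58. Mfap5 was at 307 and 130 CPM (2.36-fold lower), but its log2 ratio was -0.45 with every barcode weighted equally, within the fold. In the same class Snai1, a repressor of epithelial genes, was at 88.5 and 36.9 CPM (2.40-fold lower). Of the list of chemokines and NF-kB targets, 1 of 7 genes measured in the class was past the fold and higher (Cxcl12) and 1 lower, with a median of -0.09. The lower one, Ccl2, a chemokine that draws monocytes, was at 141 CPM in WT and 8.82 in CCR2-DTR, but 86 of its 89 WT UMIs lay in 1 barcode.

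The highest mesenchymal genes by the naming rule, which passes over genes with a far higher level in another class, were again of dividing cells. Enpp2, which the rule passes over, had a log2 ratio of 2.66. Prc1, which bundles spindle microtubules, was at 14.2 CPM in 4 WT barcodes and 81.0 CPM in 17 CCR2-DTR barcodes (5.69-fold). Ube2c had UMIs in 2 and 18 barcodes (5.49-fold) and Top2a in 9 and 23 (5.29-fold). Few barcodes carry each value, and in barcodes with no digestive enzyme UMI the log2 ratios were 0.50 for Prc1, 0.48 for Ube2c and 1.03 for Top2a, the first pair within the fold. That set leaves out 300 of 363 CCR2-DTR and 24 of 227 WT barcodes of the class. Of the extracellular matrix list 5 of 42 measured genes were past the fold and higher and 3 lower, with a median of 0.17, and of the pericyte and fibroblast list 3 of 22 were higher, with a median of -0.19.

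Macrophages made up similar shares of both libraries, with 127 barcodes in WT (1.45% of those kept, 1.21 to 1.73) and 119 in CCR2-DTR (1.38%, 1.15 to 1.65). Their gene differences included Ccr2, given above, and genes of a subset. Barcodes with at least 2 of 6 genes of stromal-type macrophages were 11.0% in WT (14 barcodes) and 22.7% in CCR2-DTR (27 barcodes), with overlapping intervals. Mrc1, the mannose receptor of such macrophages, was at 133 and 338 CPM (2.54-fold), Folr2, a folate receptor, at 70.0 and 197 CPM from 12 and 20 barcodes (2.82-fold) and Fn1, fibronectin, at 56.7 and 152 CPM from 4 and 9 barcodes. In macrophages with no digestive enzyme UMI the log2 ratio of Fn1 was -0.18. That set leaves out 99 of 119 CCR2-DTR and 30 of 127 WT macrophages, so few CCR2-DTR barcodes carry the value. Of the resident macrophage list 8 of 19 measured genes were past the fold and higher, with a median of 0.17, and of the list of monocyte-derived and MHC class II genes 2 of 22, with a median of -0.02.

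The 3 genes that the naming rule gave as lowest in CCR2-DTR macrophages follow. Zmynd15 was at 222 CPM in WT and 86.2 in CCR2-DTR (2.57-fold), Plxdc2 at 137 and 54.7 CPM (2.50-fold) and Gpr65, a proton-sensing receptor, at 162 and 71.3 CPM (2.27-fold). In the same reduced set of macrophages, with no digestive enzyme UMI, the log2 ratio of Gpr65 was -0.24, within the fold. Outside the stromal-type subset these 3 were still 2.35-, 2.40- and 2.13-fold lower, Ccr2 was 3.02-fold higher, and Serpinb6a, a protease inhibitor, was 2.64-fold higher (1.54 to 4.71). The differences were thus present in the barcodes without that subset's genes. Within the subset the ratio was 1.05 (0.435 to 2.79) for Ccr2 and 1.02 (0.603 to 1.77) for Serpinb6a. Zmynd15, Plxdc2 and Gpr65 had at most 6 UMIs in either library there. Cx3cr1, a receptor of resident macrophages, was at 512 and 426 CPM and Cd68 at 565 and 436 CPM, both within the fold. Summed mesenchymal markers in the macrophage class were 216 CPM in WT and 10.8 in CCR2-DTR, and their part in the lower Igfbp7, a gene of vascular and mesenchymal cells, was not tested.

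The endocrine classes differed modestly in number. Beta barcodes were 42.1% of those kept in WT (3677) and 38.5% in CCR2-DTR (3309), a ratio of shares of 0.914 (0.872 to 0.958). Alpha barcodes were 27.4% and 29.1% (1.06, 1.00 to 1.12), delta 6.12% and 7.23% (1.18, 1.05 to 1.33) and Ppy 4.46% and 3.57% (0.800, 0.686 to 0.931). These shares depend on how barcodes were classed: 88 WT and 326 CCR2-DTR barcodes lay within 20% of the beta threshold. With stricter thresholds the delta ratio was 0.803, on the other side of 1, and the alpha ratio was 0.987 where hormone barcodes with acinar or ductal markers were set aside. Endothelial barcodes were 7.09% and 7.34% (1.04, 0.925 to 1.16). At 6 months the ratio for beta barcodes was 1.42, on the other side of 1. There 426 WT and 360 CCR2-DTR barcodes lay within 20% of the beta threshold. Another 846 WT (23.3%) and 407 CCR2-DTR barcodes (9.57%) fell in no class, with median insulin shares of 14.8% and 15.2%. The part of classing in the 6-month ratio was not tested. B cells were rare at 1 month, at 7 and 22 barcodes, and T cells at 5 and 5.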

How the data were processed

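Raw UMI counts per gene and barcode (32285 genes) were made and deposited by the authors with Cell Ranger 5.0.1 on mm10, per the submitters' processing notes; the deposited barcode and gene name files hold no measurement (unit: other). Neither the gene annotation used nor the treatment of intronic reads is named in these sources. Empty droplets were not used here, so free RNA was not subtracted.

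Barcodes with at least 1000 UMIs, 500 genes, at most 15% mitochondrial UMIs and a Scrublet score (scanpy 1.11.5) of at most 0.25 were kept; 363 WT and 311 CCR2-DTR barcodes exceeded that score, where the automatic threshold marked 522 and 263. Barcodes past 2 hormone thresholds, or with 3 markers of another class, were set aside as mixed (496 WT, 317 CCR2-DTR). Acinar and ductal markers were not counted against a hormone class, because 60.0% to 81.1% of hormone barcodes hold 3 of a set that includes Epcam and Krt7; this departs from the written design and was chosen after seeing the data. A count of 0 was set to 3 counts, over the class of a library, for ratios. Shares have exact Clopper-Pearson 95% intervals. With 1 library per group no test was run, and no p-value is given. The comparison was tested on simulated data (Python 3.11.15, numpy 2.4.6, scipy 1.17.1).

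The members and gene lists (32 lists, 832 of 834 entries found in the files) were chosen with earlier results of these data known, and so were the genes of the mitotic, fibroblast, pericyte and stromal-type macrophage subsets. Named genes are the 10 highest and 10 lowest shared genes, up to 5 genes of 1 class each way per class, the 3 highest and 3 lowest genes of each class and the 2 highest and 2 lowest members of each list. Digestive, haemoglobin, hormone, mitochondrial, ribosomal and predicted genes were left out except in lists, and in the class rules also markers of other classes and genes more than 5-fold below their CPM in another class. Outside the rule, and named after their values were seen, are Rps21, Rpl35, Rpl41, Gm10076, Il6ra, Fkbp5, Tsc22d3, Bambi, C3, C4b, Cebpd, Ccr1, Ccr3, Lztfl1, Aga, Cd63, Chic1, Emb, Enpp2, Igfbp7, Nav2, Rian and Slc7a2. A few genes that the rules chose are not reported here. Alternatives were scaling, gene floors, class thresholds, mixed barcodes, doublets, mitochondrial limit, depth, equal weight per barcode and barcodes with no digestive enzyme UMI.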

Additional observations from a re-analysis of the deposited data

Results flagged for a closer look

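Among genes past 1.5-fold at both ages within a class, 49 had the log2 ratio of CCR2-DTR over WT in the same direction at 1 and 6 months and 13 in opposite directions (5 in endothelial, 5 in macrophage and 3 in mesenchymal barcodes), with 1 library for each genotype and age. Of the 49, 27 were in mesenchymal, 8 in endothelial, 8 in macrophage, 3 in beta, 2 in delta and 1 in alpha barcodes. The number of genes measured at both ages is not given here, so these counts have no background share beside them. Of the 13, 5 belong to the genes named here and follow. In endothelial barcodes Cyp26b1 had a log2 ratio of -2.24 at 1 month and 4.79 at 6 months, and Car4 of -0.87 and 0.77. In mesenchymal barcodes Mfap5 had -1.24 and 2.55 and Timp1 -1.99 and 2.76, but both 1-month values depended on the weighting of barcodes: without its leading barcode Timp1 was at -0.58, and with equal weight per barcode Mfap5 was at -0.45, both within the fold. At 6 months the mesenchymal class held only 53 WT and 83 CCR2-DTR barcodes. Of these, 5 (9.43%) and 27 (32.5%) had at least 2 of 6 fibroblast genes. The part of this makeup in the 6-month values of Mfap5 and Timp1 was not tested. In macrophages Nfkbiz, which modulates NF-kB, had -0.76 and 0.73. The difference between the ages was not tested in any of these genes.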

How the results depend on the processing

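With 1 library per genotype, pools of animals, dissociation and genotype cannot be told apart, and intervals hold for counting alone. No paired analysis was possible because each group has 1 library. Of 2334 values of named genes under the alternatives, 2208 stayed within their interval or margin. The 167 values under each of the floors of 20 and 200 UMIs could not move. A floor changes which genes count as measured and not their ratios. Median centring shifted ratios by only 0.01 to 0.03, and all 167 of its values stayed. The count of 2208 therefore overstates how stable the values were. Shared and class values that moved follow, by setting. CPM over all UMIs: beta 21, Ppy 26, shared higher 0, shared lower 1 (Gm10076, and not Rpl37 or Rps21), genes of 1 class 8. Floor of 20 UMIs: beta 916, alpha 1073, delta 1036, Ppy 1167, endothelial 1630, mesenchymal 1925, macrophage 1387, shared higher 18, genes of 1 class 779, and 51 list medians past 1.25-fold against 32. Floor of 200 UMIs and 100 CPM: delta 31, Ppy 22, endothelial 64, mesenchymal 106, macrophage 44, shared higher 0, genes of 1 class 4; fewer genes were tested. Stricter class thresholds: shared lower 5, share ratio 0.782 for beta and 0.803 for delta, Cenpf in delta -0.32, Ghrl 0.026. Mixed barcodes kept: delta share ratio 1.04, and the ratio of shares with a digestive enzyme UMI 3.76 against 3.99. At least 2000 UMIs: share ratio 0.860 for beta, 1.20 for endothelial and 2.10 for mesenchymal barcodes. No digestive enzyme UMI (fewer barcodes): delta 127, Ppy 278, endothelial 306, mesenchymal 124, shared higher 0, genes of 1 class 31, mesenchymal share ratio 1.23, and log2 ratios of 0.96 for Fabp2 in delta, -2.67 for Top2a in Ppy, -0.18 for Fn1 in macrophages, 0.35 for Ghrl and -0.46 for Cdkn2c. This setting left out 6262 of 7853 CCR2-DTR and 1593 of 7972 WT barcodes of the 7 classes. It was applied without thinning, so deeper barcodes were more likely to be left out, and it removes Ctrb1 by its own rule.

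Chosen after seeing the data: a 1.25-fold threshold gave 4 shared higher and 35 shared lower; leaving out the leading barcode gave Ghrl 0.075, Hba-a1 -0.46 and Ccl2 0.24; setting aside hormone barcodes with acinar or ductal markers gave beta 62, delta 94, shared lower 1, share ratios of 0.984 for beta, 0.987 for alpha and 0.640 for Ppy, a digestive share ratio of 4.85, and log2 ratios of -1.17 for Ube2c in delta, 0.42 for Fabp2 in delta, -2.11 for Top2a in Ppy and 0.12 for Ghrl; with acinar markers alone, shared higher was 0 and the share ratios 0.853 for beta and 0.994 for alpha. The cause of these changes was not tested where none is given. Median centring, doublets, the mitochondrial limit and equal weight per barcode kept each class and shared count within 1.5 times and each share within its interval. Equal weight reached that margin with 60 genes in beta and 186 in macrophage barcodes, and kept 6 of the 14 genes of 1 class.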
